A study of Mus musculus with 7 samples.

Results

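The fibroblast growth factor (FGF) genes described here are 3 receptors, Fgfr1, Fgfr2 and Fgfr3, and 6 ligand-family genes, Fgf1, Fgf2, Fgf9, Fgf12, Fgf13 and Fgf14. They were taken by gene symbol from the 54532 gene IDs of the deposited count table, all 9 were found with 1 row each, and all 9 passed the filter on low counts. The symbols were chosen by what earlier work on these same libraries had shown of their levels and of their differences between Ang II and saline. Their values are therefore a description of these 7 libraries, and the p-values, taken from a fit over all genes, support nothing about the set. Retinas came from mice infused with Ang II (angiotensin II, a hormone that constricts vessels and raises blood pressure), 4 libraries, or with saline, 3 libraries, all sampled on day 28. The series text speaks of ApoE-/- mice, but WT is the genotype on the label of all 7 samples. Apoe itself had 253 to 406 counts per Ang II library and 150 to 304 per saline library. On the list of Müller glia markers that holds Apoe, the most abundant gene, Glul, had 29808 to 43688 counts per library. Clu had 7560 to 13509, Aqp4 had 1851 to 2468 and Hes1 had 175 to 298. Counts from a knockout allele can remain, so these counts do not settle the genotype, which was not tested. No label gives the age, the sex or the number of animals behind a library. P-values therefore measure the spread between libraries, in which technical and animal differences cannot be told apart. Counts of every pair of libraries differed by more than counting error alone (chi-square per degree of freedom 9.21 to 23).

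Secreted FGFs bind receptor tyrosine kinases at the cell surface together with heparan sulfate chains, and the receptors signal through docking proteins to the Ras-ERK cascade. Fgf1, Fgf2 and Fgf9 are ligands of this kind. Fgf12, Fgf13 and Fgf14 belong to the FGF homologous factors, which stay inside the cell and bind voltage-gated sodium channels. In the developing eye FGF signalling favours neural retina over pigment epithelium. In the adult retina FGF2 is known as a survival factor for photoreceptors that rises after injury.

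The libraries held between 14655431 and 17563493 counts. The rod transducin gene Gnat1 stood at 9024 to 12030 CPM in Ang II and 11754 to 13380 CPM in saline, so a defining marker of the labelled tissue was abundant throughout. Photoreceptor markers as a list lay on the lower side in Ang II, with 12 of 12 rod markers and 8 of 8 cone markers below 0 (median log2 fold change -0.21 for each list). Of the rod markers, 3 were lower without overlap (2.73% of all genes were). At an unadjusted edgeR p under 0.05, 8 of them were lower (1.72% of all genes were). Of the same markers limma-voom called 2 (0.831% of all genes were called), where edgeR and DESeq2 called 0 (0% and 0.205% of all genes). CPM are counts relative to the library size after TMM scaling. The most abundant markers of the other cell types in the retina were present in every library, with Glul of Müller glia at 1885 to 2570 CPM in Ang II and 2183 to 2670 CPM in saline. Others in order of level were Aldoc (astrocytes), Prkca (bipolar cells), Nefl (ganglion cells), Gad1 (amacrine cells), Opn1sw (cones), Prox1 (horizontal cells), Flt1 (endothelium) and Csf1r (microglia), and the groups overlapped for each of them except Csf1r, at 22.3 to 26.3 CPM in Ang II and 13.4 to 20.1 CPM in saline. Blood (Hbb-bs) and the front of the eye (Acta2) gave at most 77 and 13.4 CPM. Libraries that stand apart touch several FGF genes. Ang II replicate 3 had high gliosis genes and skeletal muscle genes such as Myh4 (summed CPM 259.1, against 3.73 to 18.8 in the other 6 libraries). Ang II replicate 2 had the highest sum of lens genes such as Cryaa (3491 CPM, against 3.20 to 666.1 elsewhere). Saline replicate 2 lay apart on the first principal component, which held 33.3% of the variance. Saline replicates 1 and 2 had low pigment epithelium markers (612.0 and 601.8 summed CPM), against 1582 to 2328 in the 4 Ang II libraries and 1474 in saline replicate 3.

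Fgfr2, Fgfr3 and Fgf2 varied most between libraries, and their start regions are shown because the results turn on them. The sequences are the 300 bases from 250 before to 50 after an annotated start, from RefSeq on GRCm38.p6, 5′ to 3′ on the strand of the gene. Capitals mark matches on either strand to any of 5 motifs. These were the E-box CACGTG, the E-box variant CATGTG, the OTX motif TAATCC, the GC box GGGCGG and the STAT motif TTCNNNGAA.

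Fgfr2 (chr7:130266759-130267058, minus strand): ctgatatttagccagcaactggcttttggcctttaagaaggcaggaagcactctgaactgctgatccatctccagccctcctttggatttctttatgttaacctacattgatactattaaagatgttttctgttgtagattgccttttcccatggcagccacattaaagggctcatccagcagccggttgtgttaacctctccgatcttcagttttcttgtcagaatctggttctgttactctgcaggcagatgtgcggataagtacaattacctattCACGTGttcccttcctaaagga
Fgfr3 first start (chr5:33721474-33721773, plus strand): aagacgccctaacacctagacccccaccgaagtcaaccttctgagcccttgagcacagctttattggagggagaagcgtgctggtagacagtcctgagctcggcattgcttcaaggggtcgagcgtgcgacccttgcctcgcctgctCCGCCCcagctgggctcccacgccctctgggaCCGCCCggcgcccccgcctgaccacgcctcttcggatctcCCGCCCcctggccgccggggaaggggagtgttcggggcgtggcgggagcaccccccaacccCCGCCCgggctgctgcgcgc
Fgfr3 second start (chr5:33722056-33722355, plus strand): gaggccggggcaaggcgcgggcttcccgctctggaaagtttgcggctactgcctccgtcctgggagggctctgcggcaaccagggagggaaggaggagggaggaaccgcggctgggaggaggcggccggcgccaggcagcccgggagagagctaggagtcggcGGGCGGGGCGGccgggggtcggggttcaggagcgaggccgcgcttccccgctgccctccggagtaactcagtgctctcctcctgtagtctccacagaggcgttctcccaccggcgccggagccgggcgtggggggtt
Fgf2 (chr3:37348403-37348702, plus strand): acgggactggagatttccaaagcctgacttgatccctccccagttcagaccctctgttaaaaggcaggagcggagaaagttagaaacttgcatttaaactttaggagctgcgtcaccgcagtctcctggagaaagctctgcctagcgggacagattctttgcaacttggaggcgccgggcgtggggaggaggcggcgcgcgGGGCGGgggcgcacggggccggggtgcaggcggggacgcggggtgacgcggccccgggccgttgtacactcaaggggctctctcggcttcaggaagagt

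The Fgfr2 window had 1 match, the E-box CACGTG at base 29 after the start, a motif found in 7.2% of the 32851 windows of the table. Both Fgfr3 windows had GC boxes, 4 in the first and 2 overlapping ones in the second, and Fgf2 had 1. The GC box was found in 35.7% of all windows. GC content was 43.7% for Fgfr2, 69.7% and 73.0% for Fgfr3 and 62.7% for Fgf2, against a median of 52.7% over all windows. The E-box variant, the OTX motif and the STAT motif, found in 14.2%, 7.1% and 8.3% of windows, had 0 matches in these 4. No match in a window of this size says nothing about whether a factor acts on the gene.

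Levels were set side by side per gene length, as RPKM (CPM per 1000 bases of the deposited gene length), over all 7 libraries. Fgf1, a ligand without a signal peptide, and Fgf12 stood highest, at 13.4 ± 1.24 and 13.4 ± 1.21 RPKM (SD, n = 7). Fgf13 followed at 11 ± 1.01 RPKM and Fgf9 at 8.42 ± 1.15 RPKM. Then came Fgf14 at 4.26 ± 0.232 RPKM, Fgfr1 at 4.23 ± 0.259 RPKM and Fgf2 at 3.79 ± 1.33 RPKM. Fgfr2 at 0.694 ± 0.398 RPKM and Fgfr3 at 0.554 ± 0.404 RPKM stood lowest. The ranges over libraries did not overlap between Fgf9 and Fgf14 or between Fgf2 and Fgfr2, and they overlapped between all other neighbours. By the deposited lengths, Fgf1 and Fgf12 also lay wholly above Fgf9, their lowest libraries at 11.2 and 11.5 RPKM and the highest of Fgf9 at 10.4 RPKM. Among the top genes, Fgf1 depends on its gene model, since its deposited length is 4648 bases and GENCODE M21 gives 5463 exonic bases. With the GENCODE length Fgf1 would average 11.4 RPKM, below Fgf12, and its lowest library would no longer lie above the highest of Fgf9. Fgf12 lay above Fgf13, and Fgf13 above Fgf9, in 7 of 7 libraries all the same.

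**Figure D1:**
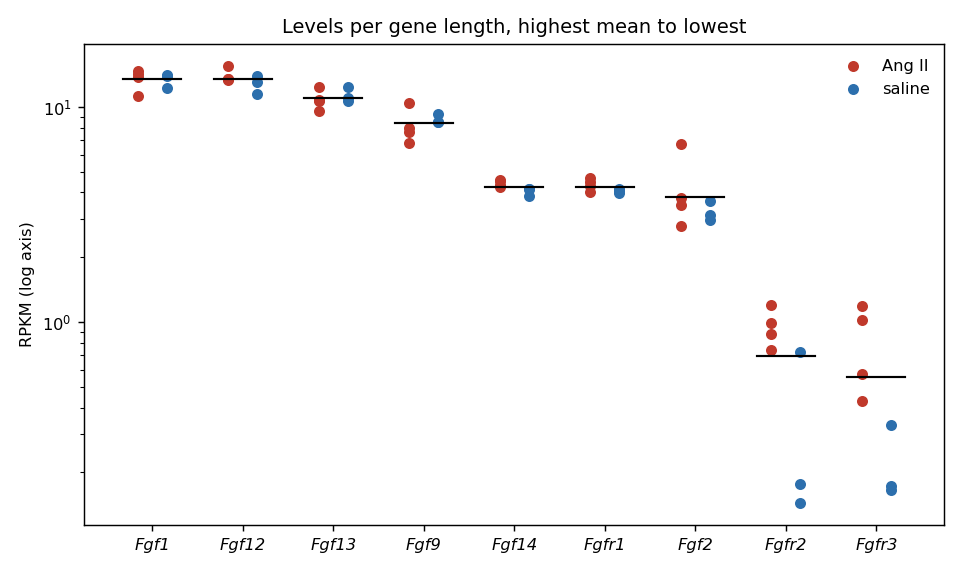
RPKM (log axis) of the 9 genes, ordered by their mean over 7 libraries; each point is 1 library, red for Ang II and blue for saline, and the black line is the mean. Fgf1 and Fgf12 at 13.4 RPKM lead and Fgfr3 at 0.554 RPKM is last, with the widest scatter in Fgfr2 and Fgfr3.

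For Ang II against saline, edgeR called 0 of 17078 genes at an adjusted p under 0.05 (0%), and so 0 of the 9 FGF genes. At an unadjusted p under 0.05 edgeR had 789 genes (4.62%), and 2 of the 9 were among them, Fgfr2 and Fgfr3. Both were higher, where 2.9% of all genes were higher at that level and 1.72% lower. DESeq2 called 35 genes (0.205%), 1 of them Fgfr3, and limma-voom with quality weights called 142 (0.831%), 2 of them Fgfr2 and Fgfr3. Fgfr2, Fgfr3 and Fgf14 were higher in every Ang II library than in any saline library, 3 of 9, where 3.18% of all genes were, and 0 of 9 were lower without overlap, where 2.73% of all genes were. The log2 fold change (Ang II over saline) was above 0 for 7 of 9 genes with a median of 0.12, where 48.9% of all genes were above 0 and the median was -0.005. Since the genes were picked with these values known, the shares over all genes are given for scale alone.

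**Figure D2:**
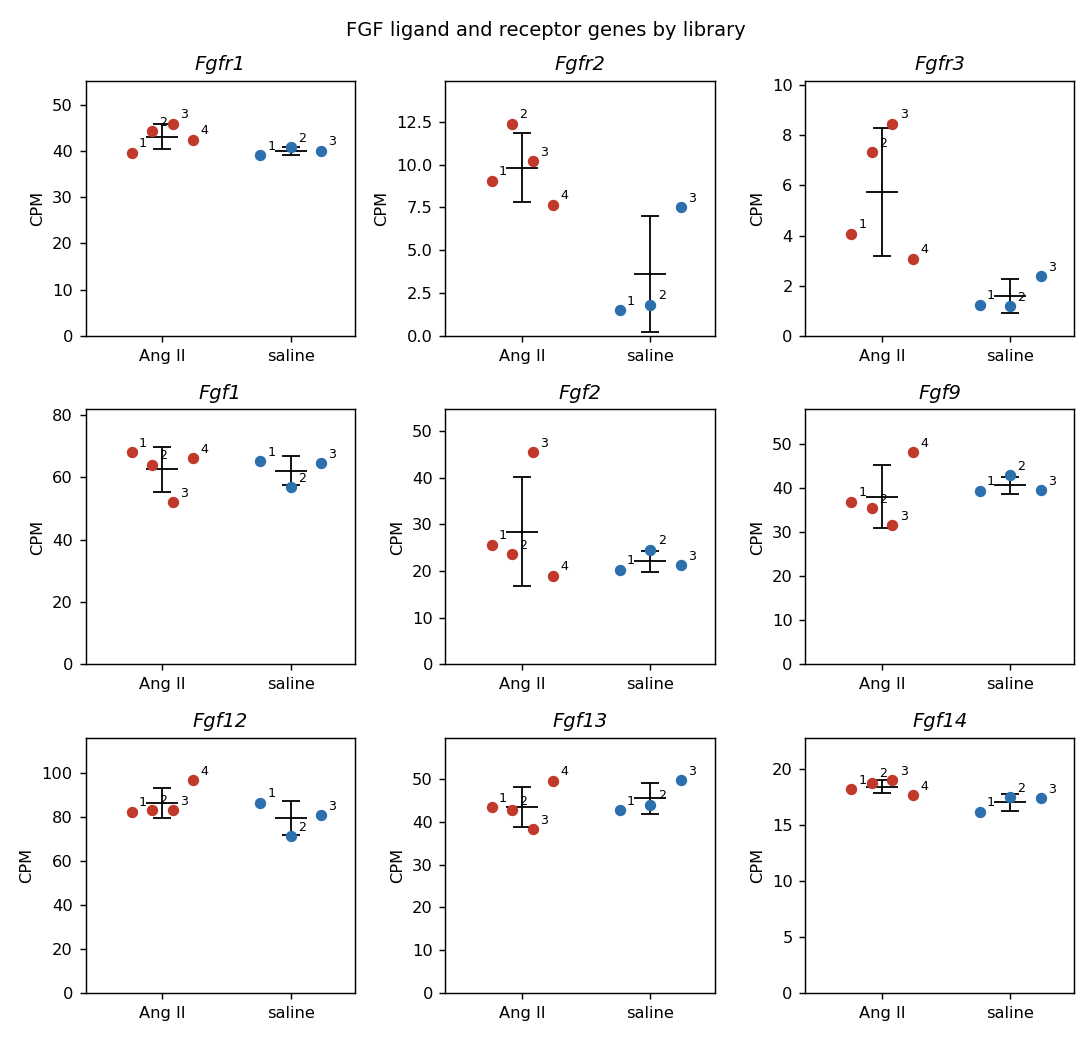
CPM of each gene, 1 point per library with its replicate number, in Ang II (red) and saline (blue); the horizontal tick is the mean and the bars are the SD (n = 4 and n = 3), and each y axis starts at 0. Fgfr2, Fgfr3 and Fgf14 do not overlap between groups, and Fgf2 has 1 library at 45.5 CPM.

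Fgfr3 (ENSMUSG00000054252, chromosome 5, 33721674 to 33737068, mm10, plus strand) encodes a receptor best known for restraining bone growth. It stood at 4.08, 7.33, 8.47 and 3.08 CPM in Ang II replicates 1 to 4, from 72, 120, 134 and 51 counts. In saline replicates 1 to 3 it stood at 1.24, 1.19 and 2.38 CPM, from 20, 17 and 39 counts. Every Ang II library was above every saline library, by little at the nearest point, since the exact Poisson 95% interval of Ang II replicate 4 ran from 2.29 to 4.05 CPM and that of saline replicate 3 from 1.69 to 3.26 CPM, intervals that cover counting error only. Fgfr3 averaged 5.74 ± 2.57 CPM over the Ang II libraries (SD, n = 4) and 1.6 ± 0.675 CPM over the saline libraries (SD, n = 3). The log2 fold change was 1.83 ± 0.39 (SE, 95% interval 0.98 to 2.67). The edgeR adjusted p was 0.54 and the DESeq2 adjusted p was 0.00246, so the call depended on the tool. Without saline replicate 3 edgeR gave a log2 fold change of 2.24 and an adjusted p of 0.0191. Leaving out any other single library gave 1.58 to 2.03, with an edgeR adjusted p of 0.295 or more.

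Fgfr2 (ENSMUSG00000030849, chromosome 7, 130162451 to 133123350, minus strand) encodes a receptor that many epithelia use. It stood at 9.07, 12.4, 10.2 and 7.66 CPM in Ang II replicates 1 to 4, against 1.49, 1.82 and 7.52 CPM in saline replicates 1 to 3. Saline replicate 3, with 123 counts, lay next to Ang II replicate 4, with 127 counts, whereas saline replicates 1 and 2 had 24 and 26. Fgfr2 averaged 9.83 ± 2.0 CPM over the Ang II libraries (SD, n = 4) and 3.61 ± 3.39 CPM over the saline libraries (SD, n = 3). The log2 fold change was 1.43 ± 0.55 (SE, 95% interval 0.13 to 2.74) with an edgeR adjusted p of 0.982. One library decided the size of this difference. Without saline replicate 3 the log2 fold change was 2.58 with an edgeR adjusted p of 8.85e-05, while 117 of 17553 genes (0.667%) were called in that fit.

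Fgfr2 and Fgfr3 moved across libraries with markers of the pigment epithelium, the cell sheet that helps photoreceptors renew their outer segments and visual pigment. Of the 14 markers, 13 had a log2 fold change above 0 (48.9% of all genes were) with a median of 0.91. Without overlap between the groups, 7 were higher (3.18% of all genes were), and 0 had a library without counts. DESeq2 called 1 of the 14 (0.205% of all genes), limma-voom 6 (0.831%) and edgeR 0 (0%). The correlation of log2 CPM with the log2 summed marker level was 0.98 for Fgfr2 and 0.93 for Fgfr3 over 7 libraries, where both values come from the same RNA and depth. Fgf14 had r = 0.83 and Fgfr1 r = 0.63 with the same sum, so the relation was not limited to these receptors. Photoreceptor markers went the other way between the groups, as given above, and their part in the values was not tested. Rlbp1, which Müller glia also express, made up much of the sum in saline replicates 1 and 2. Over the other 13 markers, a trimming chosen after the values were seen, the sum was 1367, 1412, 1912 and 1090 CPM in Ang II replicates 1 to 4, against 195.8, 230.0 and 985.2 CPM in saline replicates 1 to 3. Per 1000 CPM of those markers, Fgfr2 stood at 6.64, 8.78, 5.32 and 7.03 CPM in the Ang II retinas and at 7.59, 7.92 and 7.63 CPM in saline, so the groups overlapped on that scale. Fgfr3 on the same scale stood at 2.99, 5.19, 4.43 and 2.82 CPM in the Ang II retinas and at 6.33, 5.18 and 2.42 CPM in saline, also overlapping. When a pigment epithelium score entered the model beside the group (a score that itself differs between the groups), the log2 fold change was 0.21 ± 0.31 (SE) for Fgfr2 and 0.83 ± 0.50 for Fgfr3. In bulk tissue, more cells of a type and more RNA per cell cannot be told apart, and the part of pigment epithelium in the receptor values was not tested beyond these numbers.

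**Figure D3:**
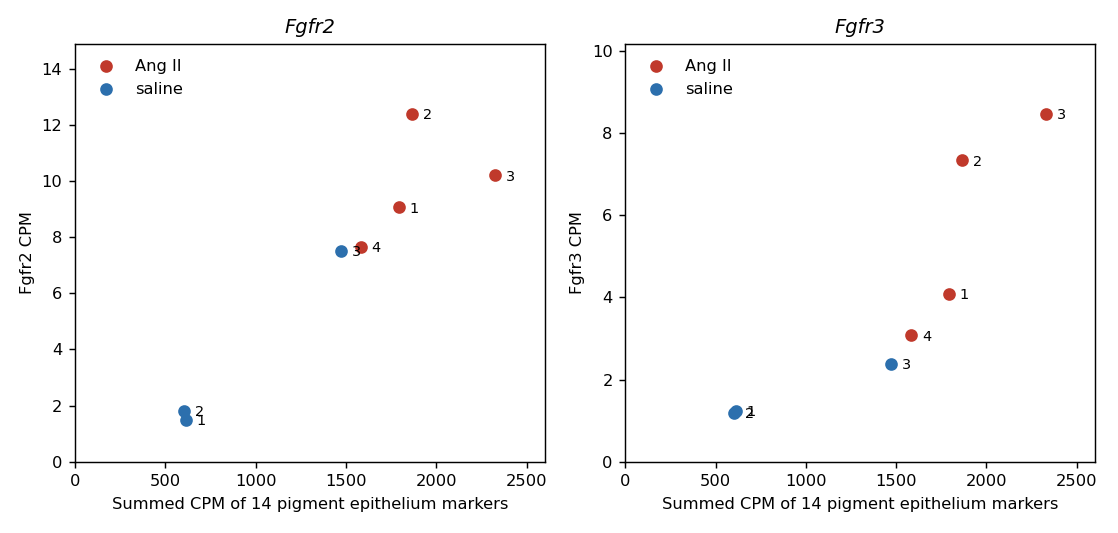
CPM of Fgfr2 (left) and Fgfr3 (right) against the summed CPM of 14 pigment epithelium markers, 1 point per library with its replicate number, red for Ang II and blue for saline, both axes from 0. Saline replicates 1 and 2 sit at the low end of both axes and saline replicate 3 beside Ang II replicate 4.

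The sum of lens genes gave another order of libraries. Ang II replicate 4, with a lens sum of 3.20 CPM, and saline replicate 3, with 666.1 CPM, had 7.66 and 7.52 CPM of Fgfr2. Ang II replicate 2 was the highest library for both, with a lens sum of 3491 CPM and 12.4 CPM of Fgfr2. The part of lens tissue in the Fgfr2 values was not tested. The genes most like Fgfr2 over the 7 libraries, among 11370 with at least 5 CPM, were Ttr (the carrier of thyroid hormone and retinol, r = 0.991), Tshr (the thyrotropin receptor, r = 0.990) and Inpp5k (an inositol phosphatase, r = 0.990). Those most like Fgfr3 were Ccdc50 (r = 0.984), Eif2ak2 (a kinase switched on by double-stranded RNA, r = 0.983) and Sgk3 (r = 0.981). Fgfr2 and Fgfr3 had r = 0.90 with each other. With so many genes and 7 libraries, high values of r arise for any gene, and the other 7 FGF genes had best matches at 0.967 to 0.996.

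Fgfr1 (ENSMUSG00000031565, chromosome 8, 25513654 to 25575718, plus strand), the receptor with the highest level here, stood at 39.6, 44.2, 45.9 and 42.4 CPM in the Ang II retinas and at 39.1, 40.8 and 40.0 CPM in saline. Its log2 fold change was 0.11 ± 0.10 (SE, 95% interval -0.10 to 0.31, edgeR adjusted p = 0.982), with the groups overlapping. Of the summed RPKM of Fgfr1 to Fgfr4, Fgfr1 made up 69.6%, 63.2%, 63.1% and 68.9% in Ang II replicates 1 to 4, against 84.9%, 81.8% and 73.8% in saline replicates 1 to 3. Fgfr2 made up 11.9% to 17.0% in Ang II and 3.09%, 3.50% and 13.2% in saline. Fgfr3 made up 9.89%, 14.5%, 16.1% and 6.90% in Ang II and 3.71%, 3.30% and 6.06% in saline. Fgfr4 made up 5.27%, 5.36%, 7.51% and 12.3% in Ang II and 8.26%, 11.4% and 6.91% in saline, so that it exceeded Fgfr2 and Fgfr3 in Ang II replicate 4 and in saline replicates 1 and 2. The sum of the receptors was 5.77 to 7.37 RPKM in Ang II and 4.66 to 5.49 RPKM in saline. Fgfr4 stood at 1.08 to 2.72 CPM in Ang II and 1.34 to 2.03 CPM in saline, and the decoy receptor gene Fgfrl1 at 8.03 to 10.5 CPM in Ang II and 7.08 to 9.29 CPM in saline, both with an edgeR adjusted p over 0.05 (0.985 and 0.982).

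Among the ligands, Fgf2 (ENSMUSG00000037225, chromosome 3, 37348346 to 37410108, plus strand) stood at 25.6, 23.6, 45.5 and 19.0 CPM in Ang II replicates 1 to 4. In saline replicates 1 to 3 it stood at 20.3, 24.6 and 21.3 CPM. The high value came from 719 counts in Ang II replicate 3, and the other 6 libraries lay between 19.0 and 25.6 CPM with the groups overlapping. Fgf2 averaged 28.4 ± 11.7 CPM over the Ang II libraries (SD, n = 4) and 22.1 ± 2.27 CPM over the saline libraries (SD, n = 3). The log2 fold change was 0.37 ± 0.28 (SE, 95% interval -0.27 to 1, edgeR adjusted p = 0.982). Without Ang II replicate 3 the log2 fold change was 0.05 ± 0.14.

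The library with high Fgf2 also had the highest sum of gliosis genes, a set that marks stressed glia. In Ang II replicate 3, the glial filament gene Gfap stood at 79.8 CPM, Edn2, which encodes an endothelin peptide, at 30.5 CPM, and Serpina3n, which encodes a serpin, at 53.4 CPM. The transcription factor gene Stat3, the most abundant of the list, stood at 150.0 CPM there. Elsewhere the highest values of these 4 genes were 9.60, 3.65, 8.80 and 90.1 CPM. The 15 gliosis genes summed to 543.4 CPM in that library and to 160.7 to 220.6 CPM in the other 6. Not all of them were highest there, since Lcn2 stood at 9.42 CPM in Ang II replicate 3 and at 10.2 CPM in saline replicate 3. Of the 14 that were tested, 14 had a log2 fold change above 0 (48.9% of all genes were), with a median of 0.71. Ang II replicate 3 weighs on some of these values. Without it, Gfap had 8.05, 6.84 and 8.03 CPM in Ang II, below the 9.23 to 9.60 CPM of saline. Cd44 had 10.2, 17.5 and 10.2 CPM in those libraries, against 8.25 to 11.6 CPM in saline. Of the 14 tested genes, edgeR and DESeq2 called 0 (0% and 0.205% of all genes). limma-voom called 1 of the 14, the cytokine receptor gene Osmr (adjusted p = 0.028), where it called 0.831% of all genes. The correlation of Fgf2 with the gliosis sum was 0.95 over 7 libraries and 0.57 over the 6 without Ang II replicate 3. Skeletal muscle genes were high in the same library, as given above, and their part in the Fgf2 value was not tested. The genes most like Fgf2 were Rhebl1 (r = 0.989), Zfp90 (r = 0.985) and Hook2 (r = 0.982). Fgf1, Fgf9 and Fgf13 had their lowest values in this same library.

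**Figure D4:**
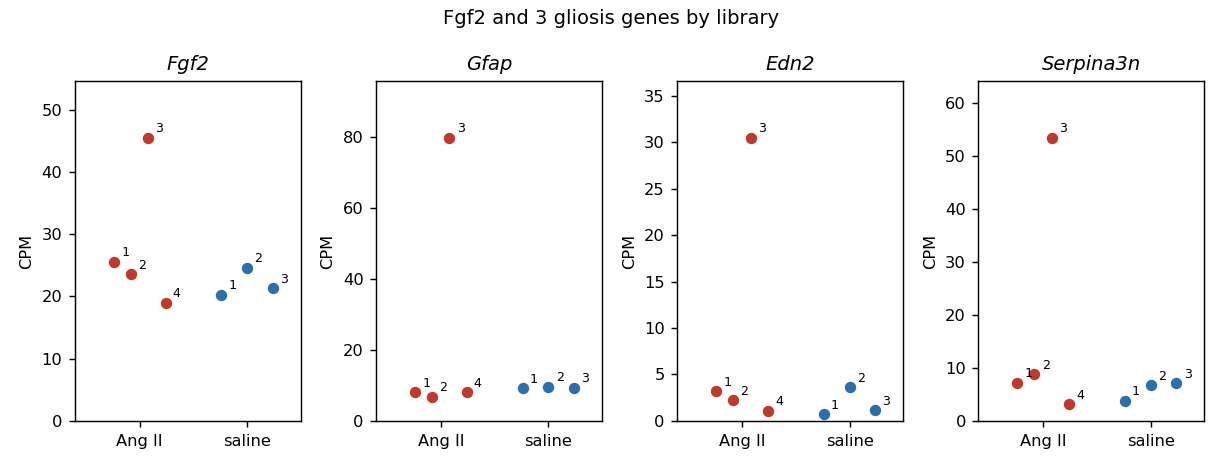
CPM of Fgf2 and of the gliosis genes Gfap, Edn2 and Serpina3n, 1 point per library with its replicate number, in Ang II (red) and saline (blue), y axes from 0. Ang II replicate 3 is the highest library in all 4 panels, at 45.5, 79.8, 30.5 and 53.4 CPM.

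Fgf1 (ENSMUSG00000036585, chromosome 18, 38838673 to 38929404, minus strand), which can bind every FGF receptor, stood at 68.1, 64.0, 52.0 and 66.1 CPM in the Ang II retinas and at 65.2, 56.8 and 64.5 CPM in saline. Its log2 fold change was 0.01 ± 0.11 (SE, 95% interval -0.22 to 0.24, edgeR adjusted p = 0.996), with the groups overlapping throughout. Fgf9 (ENSMUSG00000021974, chromosome 14, 58070547 to 58112720, plus strand), which has a part in drawing the border between neural retina and pigment epithelium, stood at 36.9, 35.4, 31.6 and 48.2 CPM in the Ang II retinas and at 39.4, 42.9 and 39.5 CPM in saline. The Ang II libraries spread around the saline ones, and the log2 fold change was -0.09 ± 0.13 (SE, 95% interval -0.37 to 0.18, edgeR adjusted p = 0.983). Fgf2 went against both across libraries, with r = -0.81 for Fgf1 and -0.79 for Fgf9 over 7 libraries. Without Ang II replicate 3 these were -0.28 and -0.60 over 6 libraries, so the first rests on that library. Best matches were Nap1l3 (r = 0.968), Snrk (r = 0.963) and Fbxl17 (r = 0.962) for Fgf1, and Rab6b (r = 0.976), Chrna6 (r = 0.975) and Adgra1 (r = 0.973) for Fgf9.

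Each homologous factor varied less between libraries than Fgf2. Fgf12 (ENSMUSG00000022523, chromosome 16, 28160098 to 28753068, minus strand) stood at 82.3, 83.1, 83.0 and 96.4 CPM in the Ang II retinas and at 86.3, 71.1 and 80.7 CPM in saline, which gave a log2 fold change of 0.12 ± 0.10 (SE, 95% interval -0.09 to 0.32, edgeR adjusted p = 0.982). Fgf13 (ENSMUSG00000031137, chromosome X, 59062145 to 59568071, minus strand), which also binds microtubules, stood at 43.5, 42.7, 38.3 and 49.6 CPM in the Ang II retinas and at 42.8, 44.0 and 49.7 CPM in saline, which gave a log2 fold change of -0.06 ± 0.11 (SE, 95% interval -0.29 to 0.16, edgeR adjusted p = 0.983). The groups overlapped for both genes. Fgf14 (ENSMUSG00000025551, chromosome 14, 123977907 to 124677127, minus strand), the gene mutated in a human form of spinocerebellar ataxia, stood at 18.2, 18.8, 19.0 and 17.7 CPM in the Ang II retinas and at 16.2, 17.5 and 17.4 CPM in saline. The Ang II libraries lay above the saline ones by as little as 17.7 against 17.5 CPM, and the log2 fold change was 0.12 ± 0.12 (SE, 95% interval -0.14 to 0.38, edgeR adjusted p = 0.982).

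Fgf14 had the smallest coefficient of variation of the 9 genes, 5.45% over the 7 libraries, followed by Fgfr1 at 6.13%, Fgf12 at 9.0%, Fgf13 at 9.17%, Fgf1 at 9.25% and Fgf9 at 13.7%. The median over all 17078 genes was 13.9%. Fgf2 at 35.1%, Fgfr2 at 57.4% and Fgfr3 at 72.8% stood above it, the last with the lowest counts. The summed RPKM of Fgf11 to Fgf14 was 51.2, 51.1, 52.7 and 62.5 in Ang II and 54.5, 52.6 and 52.8 in saline, highest in Ang II replicate 4. Best matches were Tspan2 (r = 0.971), Mast4 (r = 0.968) and Caln1 (r = 0.959) for Fgf12. For Fgf13 they were Prkar1b (r = 0.983), Ppp1r3d (r = 0.981) and Eif4ebp2 (r = 0.973), and for Fgf14 Parp14 (r = 0.996), Ggnbp2 (r = 0.983) and Itgav (r = 0.973). Fgfr1 was most like Chka (r = 0.967), Epha6 (r = 0.964) and Atg4a (r = 0.957).

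Among the 9 tested sodium channel subunits that the homologous factors bind, edgeR called 0, as it did among all genes (0%). Of these subunits 5 lay above 0 and 4 below, with a median log2 fold change of 0.02. Scn8a, the most abundant by CPM, stood at 156.1 to 165.0 CPM in Ang II and 142.9 to 183.1 CPM in saline. The smallest p belonged to Scn3b, at -0.18 ± 0.12 (SE), Scn3a, at 0.17 ± 0.11, and Scn9a, at 0.29 ± 0.20 (0.13 without saline replicate 1), with edgeR adjusted p of 0.982 each.

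The 22 further genes listed were other FGF ligands and receptors, coreceptor genes (Kl, Klb) and FGF-binding protein genes (Fgfbp1, Fgfbp3). Of these, 11 passed the filter on low counts, and edgeR called 0 of them, as among all genes (0%). Among the 11, 7 lay above 0 and 4 below, with a median of 0.17. The most abundant was the homologous factor gene Fgf11, at 68.7 to 92.6 CPM in Ang II and 70.7 to 79.5 CPM in saline (log2 fold change 0.01 ± 0.11). Smallest p were those of Fgf7, a ligand of epithelia made by mesenchyme (1.08 ± 0.59, at 0.603 to 0.948 CPM in Ang II and 0.124 to 0.672 CPM in saline), of Fgfrl1 (0.26 ± 0.18), and of Kl, a coreceptor gene for hormone-like FGFs (-0.33 ± 0.25). Fgf7 stood at 2.09 without saline replicate 3, 0.68 without saline replicate 1 and 0.07 beside the pigment epithelium score. Kl stood at -0.05 without saline replicate 3 and -0.86 beside the score. Fgf4, Fgf6, Fgf15, Fgf16 and Fgf20 had 0 counts in all 7 libraries. A count of 0 allows up to 3 counts, which is 0.170 to 0.210 CPM depending on the library.

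Docking proteins and the Ras-ERK cascade, 20 genes, lay within a narrow band, with log2 fold changes between -0.13 and 0.16 and a median of 0.01. Of the 20, edgeR called 0, as it did among all genes (0%). Braf (0.16 ± 0.10) and Map2k2 (-0.13 ± 0.09), which encode kinases of the cascade, had an edgeR adjusted p of 0.982 each. Frs2, the docking protein of the FGF receptors, was at 0.04 ± 0.09.

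Among 22 feedback and target genes of FGF-ERK signalling, edgeR called 0 (0% of all genes were called). Of the 22, 7 lay above 0 and 15 below, with a median of -0.08. Groups did not overlap for 5 genes lower in Ang II (Dusp5, Egr1, Fos, Ier3 and Spry2), where 2.73% of all genes were lower in this way, and for 1 higher (Etv1), where 3.18% were. DESeq2 called 0 of the 22 (0.205% of all genes) and limma-voom 3 (Dusp5, Egr1 and Fos), where limma-voom called 0.831% of all genes. Dusp5, an ERK phosphatase gene, had 21.7, 24.7, 16.9 and 24 CPM in Ang II and 33.1, 27.6 and 31.4 CPM in saline (-0.49 ± 0.14, edgeR adjusted p = 0.875). Ier3 followed (-0.32 ± 0.10, edgeR adjusted p = 0.982), and then the immediate early gene Egr1 (-3.19 ± 0.90, edgeR adjusted p = 0.982), whose saline values of 93.5, 366.8 and 29.3 CPM spread widely, against 13.8 to 23.7 CPM in Ang II. Without saline replicate 2 the Egr1 value was -1.79, and beside the pigment epithelium score it was -0.45 ± 1.0. Of the genes best known as FGF targets in the embryo, Dusp6 stood at 0.12 ± 0.33, Spry4 at -0.26 ± 0.21 (-0.51 without Ang II replicate 4) and Etv5 at -0.07 ± 0.23, and Dusp6 and Etv5 changed sign under some alternatives.

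Heparan sulfate coreceptors and enzymes, 24 genes, had 0 calls with edgeR (0% of all genes were called). Of the 24, 9 lay above 0 and 15 below, with a median of -0.04. Gpc3, a glypican gene, had 10.4, 15.7, 14 and 11.4 CPM in Ang II and 6.81, 4.35 and 11 CPM in saline (0.80 ± 0.27, edgeR adjusted p = 0.982), with saline replicate 3 inside the Ang II range. Its value was 0.06 beside the pigment epithelium score, and 1.21 without saline replicate 3 (edgeR adjusted p = 0.0173). Sulf1, which trims sulfate from heparan chains, was at 0.29 ± 0.14 (0.16 without Ang II replicate 3) and Extl3, a chain-building enzyme gene, at -0.16 ± 0.08, with edgeR adjusted p of 0.982 for both.

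**Figure D5:**
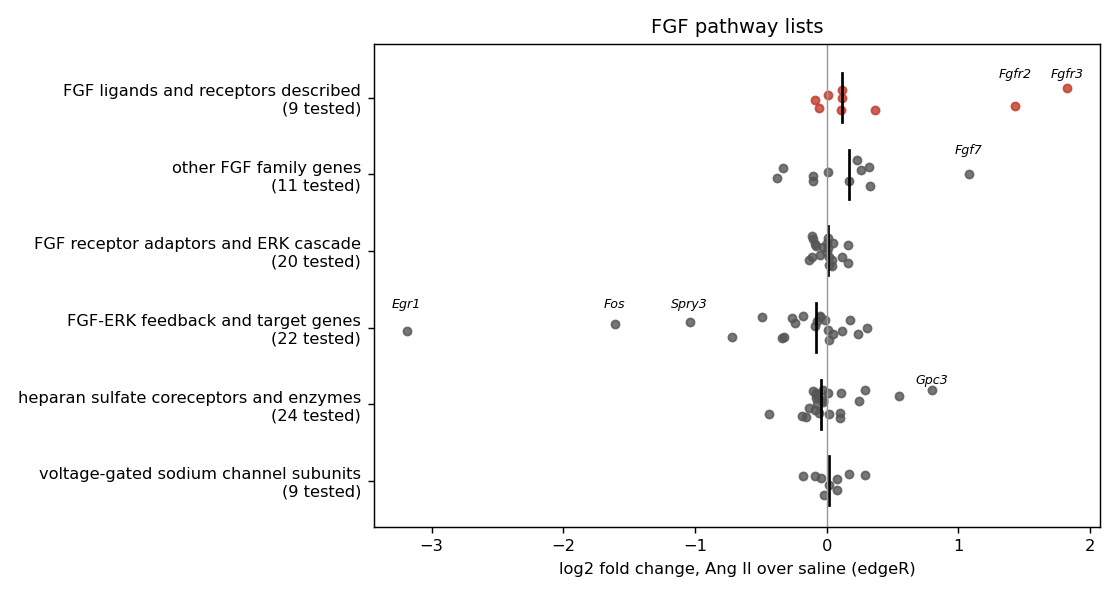
edgeR log2 fold change of Ang II over saline for every tested gene (points, shifted vertically at random) in 6 lists, with the list median as a black bar; genes beyond 0.75 in size are named. Fgfr2 and Fgfr3 stand at 1.43 and 1.83 while the adaptors stay between -0.13 and 0.16.

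Gene models limit these values in a few places. Since the library protocol marks no strand, reads from overlapping genes cannot be told apart. Fgf2 shares 895 exonic bases, 13.2% of its exons, with neighbours, 640 of them with Nudt6 on the opposite strand. Nudt6 had 30, 20, 33 and 26 counts in Ang II replicates 1 to 4, against 37, 15 and 28 in saline replicates 1 to 3, so its 33 counts in Ang II replicate 3 lay within the range of the other libraries. The Fgfr2 model spans 2960900 bases and 69 other genes, but shares exons, 314 bases, with 1 of them, Ctbp2 on the same strand. Ctbp2 had 5095 counts in Ang II replicate 3 and 5484 in saline replicate 1, where Fgfr2 had 161 and 24. Fgfr3 shares 998 exonic bases with a gene on the other strand that had 0 or 1 counts per library. Fgf1, Fgf9, Fgf12 and Fgf13 share 0 exonic bases with other genes of the table, by GENCODE M21 models that match the deposited span for each of them except Fgf1.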

How the data were processed

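Gene counts of 7 mouse retina libraries were analysed. Raw counts were deposited, whole numbers in 1 column for each library. CASAVA, HISAT2 2.0.5, featureCounts 1.5.0-p3 and the build mm10 are named by the submitters' processing notes, without their settings. Which annotation and strand setting were used, and how reads with several matches were treated, is not given in the sources used here. Columns were matched by sample description, and groups follow the treatment label. The deposited gene length in bases, another column of the authors, was used for RPKM. The gene IDs were set against GENCODE M21 on the same build, where 98.3% of shared IDs had the same start and end.

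Groups were compared with edgeR 4.0.16 (quasi-likelihood test, robust, two-sided, R 4.3.3) after filterByExpr and TMM scaling, in a model of all 7 libraries that held just the group. P-values were adjusted over all genes by the Benjamini-Hochberg method, with a threshold of 0.05. Standard errors were derived from the F statistic. DESeq2 1.42.0 and limma 3.58.1 were alternatives. For correlations, log2 CPM had a prior count of 2. The members and lists were chosen with earlier results of these data known. Named genes are the members, the 3 of smallest p in each pathway list, a few fixed genes, the most abundant gene of each marker list and the 3 best correlated with each member. A few genes that this rule names are not reported here, and other genes in the text were chosen after their values were seen. Replicate numbers 1 to 3 occur in both groups, and no label says that they pair animals.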

Additional observations from a re-analysis of the deposited data

Results flagged for a closer look

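Libraries were set against their own group by Dixon's ratio, the gap of the highest or lowest library to its nearest neighbour over the range of the 4 Ang II libraries, with a critical value of 0.829. Chance gives about 1 such case in 20 groups, and many genes were examined. Saline, with 3 libraries, was not examined this way. Among FGF genes, Fgf12 in Ang II replicate 4 stood at 96.4 CPM, with the other 3 at 82.3 to 83.1 CPM. In the same library Tspan2 (10.7 CPM) and Mast4 (34.5 CPM), both among the genes most like Fgf12, and the feedback gene Spry4 (15.8 CPM, with the next at 9.24 CPM) stood out. Fgf2 in Ang II replicate 3 did not pass the critical value. In that library Gfap (79.8 CPM), Edn2 (30.5 CPM), Serpina3n (53.4 CPM) and the muscle gene Myh4 (85 CPM, with the next at 1.57 CPM) were high, and Snrk, among the genes most like Fgf1, was low (138.8 CPM, with the next at 175.3 CPM). Tspan2, Mast4 and Snrk were examined for their likeness to Fgf12 or Fgf1 over these same libraries, so they add no support. Gfap, Edn2 and Serpina3n were added to the check by choice.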

How the results depend on the processing

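The count of genes called by edgeR, 0 in the fit reported, was 35 with DESeq2, 142 with limma-voom and quality weights, 98 with no filter on low counts and 56 with the replicate number as a block. It ranged from 0 to 117 when 1 library at a time was left out, with 117 without saline replicate 3. It was 0 with DESeq2 size factors, library size alone or the pigment epithelium score, and without Ang II replicate 3 and saline replicate 2 together. The order of levels by the median was the same for 9 of 9 genes. Over 15 alternatives for each of the 9 FGF genes, 118 values kept their direction and their side of the threshold. Fgfr3 passed with DESeq2, limma-voom (adjusted p = 0.0296), no filter (2.78e-06), the replicate block (0.00465) and without saline replicate 3. Fgfr2 passed with limma-voom (2.41, adjusted p = 0.00492) and without saline replicate 3. In the other 10 alternatives for Fgfr3 and the other 13 for Fgfr2, the adjusted p was over 0.05. The cause was not tested. Same-numbered libraries had correlations of deviations of -0.07, -0.02 and 0.05, and other pairs had -0.11 to 0.10. With 3 saline libraries, these values can neither show nor exclude pairing. Ang II replicate 4 has no saline library of its number, so it adds nothing to the group difference in the block fit. The block is not read further. Some values near 0 changed sign. Fgf1 was at -0.01 with limma-voom, -0.04 with the score and -0.02 with the block, and at -0.05 to 0.09 when leaving out 1 library. Fgf9 was at 0.10 with the score and 0.02 without Ang II replicate 3 and saline replicate 2. Fgf13 ranged from -0.13 to 0.01 when leaving out 1 library. Dusp6 was at -0.05 (limma-voom), -0.10 (score), -0.06 (block), -0.03 (both libraries left out) and from -0.16 to 0.37 when leaving out 1 library (-0.12 without Ang II replicate 4). Etv5 was at 0.58 (score), 0.03 (both left out), and from -0.26 to 0.07 when leaving out 1 library. With the score Fgfrl1 was at -0.09 and Scn3b at 0.02. Depth limits Fgfr3 most, with 17 counts in saline replicate 2 (exact Poisson 95% interval 9.90 to 27.2).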
